A study of Mus musculus with 2 samples.

Results

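Apoe, Clu, Fabp5, Fabp7, Abca1 and Lrp1 were followed in single nuclei of the neonatal mouse cerebellum. They are 6 of the 32285 genes counted, and they encode proteins that carry, bind, export or take up lipid. The genes were chosen by symbol and with results of these data in view, from the ratio between the 2 libraries, in which Apoe stood near the top. The ratios between the libraries are therefore given as a description, with no test.

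Lipid moves between brain cells on small lipoprotein particles, because plasma lipoproteins do not cross the blood-brain barrier. Apolipoprotein E, made mostly by astrocytes and by microglia, is the main protein of these particles, and clusterin (Clu) is another. Abca1 is the membrane transporter that loads cholesterol and phospholipid onto apolipoproteins, and Lrp1 is a large endocytic receptor that takes the particles up. Fabp5 and Fabp7 are small cytoplasmic proteins that carry fatty acids inside the cell, and Fabp7 is widely used as a marker of radial glia and Bergmann glia.

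Nuclear RNA was counted in 2 libraries of cerebellum at postnatal day 1, each made from 12 pooled cerebella. The control library came from Cre-negative littermates, with the genotype given as Tox3f/f and the library name as Tox3f/f or Tox3f/+, and the other, labelled conditional knockout (cKO, hence the cKO-labelled library), from Nestin-cre;Tox3f/f mice. Both groups thus carried a floxed Tox3 allele, and they differed in the Nestin-cre transgene, which acts in neural precursors and so in the neurons and macroglia they give rise to. Microglia and macrophages arise outside the neural lineage. The filters kept 4667 control nuclei with 20493455 unique molecular identifiers (UMIs) and 6555 nuclei with 30169066 UMIs in the cKO-labelled library. Nuclei with fewer than 1000 UMIs made up 20.9% of the first and 10.1% of the second, and 9 barcodes occurred in both libraries. Tox3 UMIs did not check the genotype label, as they stood at 104 per 1000000 UMIs (CPM) in control and 118 CPM in the cKO-labelled library. With 1 library per group, every interval below is an exact 95% interval and accounts for counting error alone, leaving out any spread between animals or libraries.

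Nuclei were placed by marker genes. A nucleus entered a gate when it held UMIs of at least 3 of the 8 markers of a list and at least 2 more than of any other of the 10 lists. None of the 6 genes is on a list. The astroglia gate held 216 control nuclei and 551 of the cKO-labelled library, the myeloid gate, which joins microglia and macrophages, 63 and 166, the oligodendrocyte lineage gate 64 and 209, and the 4 neuron gates together 1359 and 2228. A gate is a range on a marker count and not a cell type. In astroglia 120 control nuclei and 279 of the other library lay at the cut itself, with exactly 3 markers or a lead of exactly 2, and in the myeloid gate 12 and 18 did. The own list of 8 markers summed to 7242 and 6333 CPM in the astroglia gate and to 7464 and 10202 CPM in the myeloid gate, with no marker at 0. Choroid plexus and ependymal nuclei were not found. Endothelial, fibroblast and mural gates held at most 5 nuclei, so they are left out of every order of levels below. The 3 control endothelial nuclei held 29 Abca1 and 14 Fabp7 UMIs of 12108 in all. For both genes that is a higher level than in any gate of the order.

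The name of lipid carriers of glia fitted some of these genes and not others. Apoe, Fabp7 and Abca1 stood at least 3-fold higher in astroglia than in neurons. Lrp1 in neurons was close to its level in astroglia, but it was higher in the myeloid and oligodendrocyte lineage gates, and Fabp5 differed little between neurons and the glial and myeloid gates. Clu gave few UMIs in every gate. Among the gates in the order, both Apoe and Abca1 were highest in the myeloid gate, not in astroglia.

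The promoters of Apoe and Abca1, whose levels were distributed most alike over the gates, and of Fabp7, the astroglial marker among the members, are shown for context. RefSeq starts on GRCm38.p6 were available for 4 of the 6 genes, and each window runs from 250 bases before to 50 bases after a start. Apoe, which has 3 such windows, lies on the minus strand of chromosome 7 (ENSMUSG00000002985, 19696109 to 19699188), and the window shown covers chr7:19699139-19699438. Abca1 lies on the minus strand of chromosome 4 (ENSMUSG00000015243, 53030787 to 53159895, window chr4:53159846-53160145), and Fabp7 on the plus strand of chromosome 10 (ENSMUSG00000019874, 57784881 to 57788450, window chr10:57784673-57784972). Capitals mark matches, on either strand, to TATAAA, the TATA box, CAGNTG, an E-box, and AGGTCA, the half-site of many nuclear receptors, and the matches shown do not overlap.
Apoe: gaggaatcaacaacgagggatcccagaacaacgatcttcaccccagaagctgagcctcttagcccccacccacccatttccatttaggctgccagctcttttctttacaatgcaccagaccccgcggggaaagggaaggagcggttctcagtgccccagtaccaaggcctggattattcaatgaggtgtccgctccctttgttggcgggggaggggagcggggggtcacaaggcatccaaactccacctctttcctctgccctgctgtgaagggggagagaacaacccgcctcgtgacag
Abca1: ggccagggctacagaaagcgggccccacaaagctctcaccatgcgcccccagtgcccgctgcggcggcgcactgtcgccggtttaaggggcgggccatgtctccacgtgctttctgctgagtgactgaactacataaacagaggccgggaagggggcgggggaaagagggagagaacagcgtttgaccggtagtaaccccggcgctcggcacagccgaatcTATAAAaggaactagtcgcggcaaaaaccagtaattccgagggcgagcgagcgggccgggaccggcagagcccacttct
Fabp7: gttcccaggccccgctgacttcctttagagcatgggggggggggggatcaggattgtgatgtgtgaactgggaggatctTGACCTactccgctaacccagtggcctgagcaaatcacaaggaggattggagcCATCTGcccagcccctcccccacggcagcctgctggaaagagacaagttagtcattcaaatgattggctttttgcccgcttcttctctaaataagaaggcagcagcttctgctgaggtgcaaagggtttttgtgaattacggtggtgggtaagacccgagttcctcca
The Apoe window shown held no match to any of the 3 motifs, and another Apoe window (chr7:19698572-19698871) held 1 E-box and 2 TATA box matches that overlap on opposite strands. The Abca1 window held 1 TATA box, and the Fabp7 window held 1 E-box and 1 half-site. Of 32851 mouse promoter windows of the same length, 13.6% held a TATA box, 51.4% an E-box and 16.3% a half-site. The matches are descriptions of these letters and say nothing about binding.

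Apoe was the member with the highest ratio. Over the whole library there were 3863 Apoe UMIs in control, or 189 CPM (183 to 195), and 12201 in the cKO-labelled library, or 404 CPM (397 to 412). The ratio of levels was 2.15 (2.07 to 2.23), the 118th highest of 17602 genes with at least 50 UMIs. Of these genes 5.26% were higher by a fold of 1.5 or more and 5.81% lower by as much. Apoe was the only member past that fold, and the others ranged from 0.908 for Fabp5 to 1.43 for Abca1.

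In astroglia Apoe was also higher in the cKO-labelled library. Control astroglia had 1343 Apoe UMIs, or 1380 CPM (1307 to 1455), and those of the cKO-labelled library had 5423, or 2543 CPM (2476 to 2612), which gives a ratio of 1.84 (1.74 to 1.96). Apoe ranked 171st of 8749 genes in this gate, where 6% of genes were higher by a fold of 1.5 and 4.59% were lower. After each nucleus was thinned to 1000 UMIs, 49.8% of control astroglia (42.9 to 56.7) and 71.1% of those of the cKO-labelled library (67.1 to 74.8) held an Apoe UMI, against 72.7% and 86.9% before thinning. The intervals of these shares did not overlap. Median depths were 4329 and 3744 UMIs, so the gate with the higher level was the shallower one. The list of 8 myeloid markers summed to 343 CPM in control astroglia and 301 CPM in the others. In Purkinje nuclei, where Apoe was low, it summed to 307 and 332 CPM. The part of myeloid RNA in the astroglial ratio was not tested.

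The level varied widely among astroglia. The median control nucleus of the gate stood at 566 CPM of Apoe, with quartiles of 0 and 2094 and a highest value of 12349. In the cKO-labelled library the median was 1923 CPM, the quartiles 507 and 4044, and the highest 14930. In control, 29 of 216 astroglia held 50% of the gate's Apoe UMIs, and in the cKO-labelled library 106 of 551 did, so the UMIs were spread over a larger share of the nuclei, 19.2% against 13.4%.

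Sorting the gate by subtype markers separated the levels further. Control astroglia with more markers of Bergmann glia, the radial astroglia that span the molecular layer, had 772 CPM of Apoe, and those with more markers of parenchymal astrocytes had 2801 CPM, a ratio of 3.63 (3.20 to 4.11). The corresponding values in the cKO-labelled library were 1714 and 4249 CPM, a ratio of 2.48 (2.33 to 2.64). Nuclei with at least 3 markers of division had less Apoe than the rest of the gate, 524 against 1527 CPM in control and 1129 against 2752 CPM in the cKO-labelled library. Between libraries the ratio was 2.22 (2.0 to 2.47) on the Bergmann side, 1.52 (1.38 to 1.66) on the parenchymal side and 2.15 (1.67 to 2.81) in dividing astroglia. All subsets of astroglia examined were thus above 1.5, and the interval on the Bergmann side lay above that on the parenchymal side, a difference that was not tested.

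**Figure D1:**
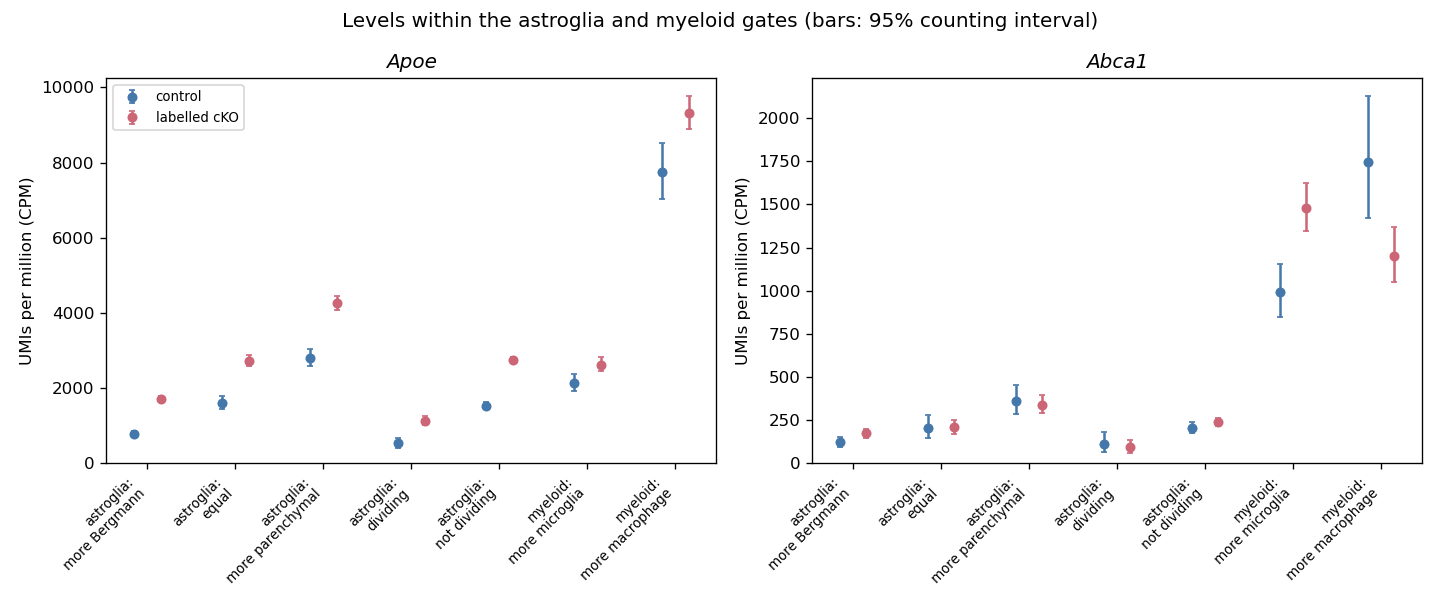
Levels of Apoe and Abca1 (CPM, linear axis from 0) in subsets of the astroglia and myeloid gates, as points with exact 95% counting intervals for the control library (blue) and the cKO-labelled library (red). Apoe was highest in the macrophage-leaning subset, at 7750 and 9320 CPM, and Abca1 in that subset was 1748 CPM in control and 1202 CPM in the cKO-labelled library.

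Myeloid nuclei had the highest Apoe level of all gates. Control had 821 Apoe UMIs in 63 nuclei, or 3406 CPM (3177 to 3648), and the cKO-labelled library had 2552 in 166 nuclei, or 4857 CPM (4670 to 5049). The ratio was 1.43 (1.32 to 1.54), below the fold of 1.5 that 9.81% of 3729 genes passed upward in this gate, and Apoe ranked 499th there. The median nuclei differed less than the sums, at 3207 CPM (quartiles 783.5 and 7208) in control and 3468 CPM (1510 and 6246) in the cKO-labelled library, where 23 of 166 nuclei held 50% of the UMIs. The gate's own 8 markers also stood higher there, at 10202 against 7464 CPM, and their part in the ratio was not tested. Of thinned myeloid nuclei 72.1% and 85.5% held an Apoe UMI. The myeloid level exceeded the astroglial one 2.47-fold (2.26 to 2.70) in control and 1.91-fold (1.82 to 2.002) in the cKO-labelled library.

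Macrophage-leaning nuclei, with more markers such as Mrc1 and F13a1 than of microglia, carried 439 of the 821 Apoe UMIs of the gate in control and 1713 of 2552 in the cKO-labelled library. Their Apoe stood at 7750 CPM in 19 control nuclei and 9320 CPM in 56 nuclei of the cKO-labelled library, while microglia-leaning nuclei had 2141 CPM in 40 and 2622 CPM in 100. Within each subset the ratio was smaller than over the gate, at 1.20 (1.08 to 1.34) and 1.23 (1.08 to 1.39). Macrophage-leaning nuclei held 56644 of the 241020 UMIs of the gate in control and 183803 of 525467 in the cKO-labelled library, so the makeup of the gate moved with its Apoe level.

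Apoe was low in the oligodendrocyte lineage and neuron gates. It was higher in nuclei with markers of several lists, at 135 and 255 CPM, and in those of no gate, at 122 and 233 CPM. The few fibroblast and mural nuclei had 218 CPM on 4 UMIs in control and 1353 CPM on 27 UMIs in the cKO-labelled library. The oligodendrocyte lineage had 27 Apoe UMIs, or 90.8 CPM, in control and 90, or 110 CPM, in the cKO-labelled library, a ratio of 1.21 (0.782 to 1.94) at which a difference was not detectable. The neuron gates had 353 UMIs, or 40.7 CPM (36.5 to 45.2), and 851, or 64.2 CPM (60.0 to 68.7). Astroglia thus exceeded neurons 33.9-fold (30.1 to 38.2) in control and 39.6-fold (36.8 to 42.6) in the cKO-labelled library. In order of level, myeloid nuclei came first, astroglia next and the oligodendrocyte lineage after them in both libraries. In control, granule lineage nuclei at 47.4 CPM stood above Purkinje nuclei at 35.4 CPM, while Purkinje and GABAergic interneuron nuclei at 34.9 CPM differed by less than their counting error.

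The low neuronal level also differed between libraries. It was 1.58-fold (1.39 to 1.79) higher in the cKO-labelled library, where 3.59% of 14686 genes were higher by a fold of 1.5. With each nucleus thinned to 1000 UMIs the ratio was 2.48. With gates set on thinned nuclei, at a marker minimum of 2 in place of 3, it was 2.16. Unthinned, it was between 1.56 and 1.91 in granule lineage, Purkinje and GABAergic interneuron nuclei. Nuclei under 1000 UMIs showed the same direction, with 437 CPM (386 to 491) in control and 941 CPM (848 to 1041) in the cKO-labelled library. Free RNA was not corrected here, so these low levels can hold UMIs from other cells. Per Fabp7 UMI there were 0.243 Apoe UMIs in control neurons and 0.266 in control nuclei under 1000 UMIs, against 2.14 in control astroglia. In the cKO-labelled library the same proportions were 0.370, 0.480 and 3.59. Neurons therefore resembled the shallow nuclei far more than astroglia in this proportion, and the part of free RNA in the neuronal level was not tested. Taking the neuronal level off left the astroglial ratio at 1.85 and the myeloid ratio at 1.42.

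**Figure D2:**
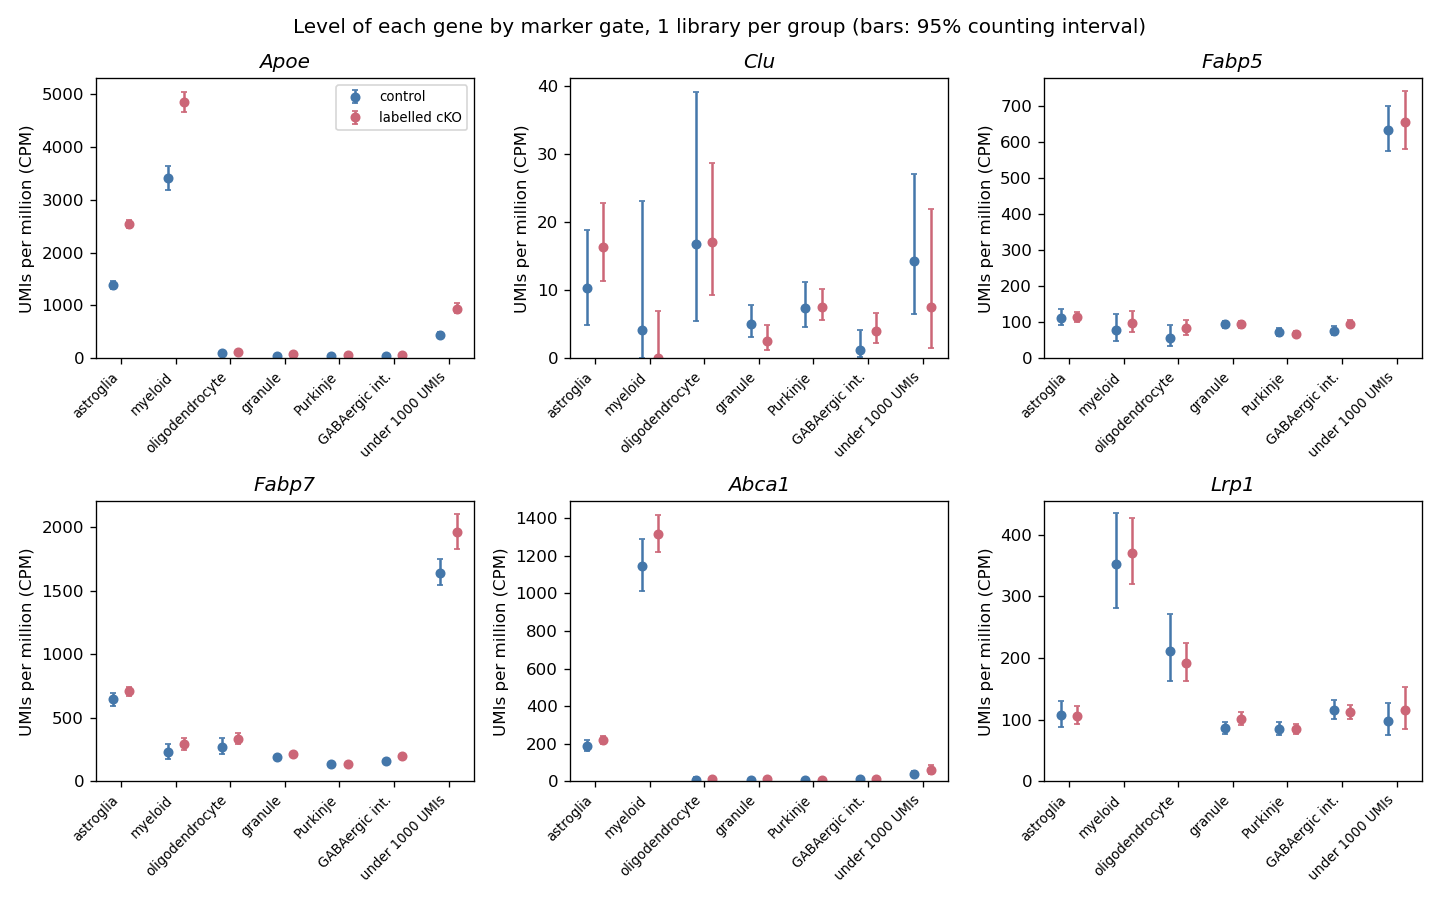
Levels of the 6 genes (CPM, linear axes from 0 with a scale for each gene) in marker gates and in nuclei under 1000 UMIs, as points with exact 95% counting intervals for the control library (blue) and the cKO-labelled library (red). Apoe and Abca1 were highest in the myeloid gate, and Fabp5 and Fabp7 were highest in nuclei under 1000 UMIs, with 634 and 1643 CPM in control.

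The share of Apoe UMIs found in astroglia was also larger in the cKO-labelled library. In control 34.8% (33.3 to 36.3) of Apoe UMIs lay in the astroglia gate, which held 4.75% of all UMIs, and in the cKO-labelled library 44.4% (43.6 to 45.3) did, with 7.07% of all UMIs. The myeloid gate held 21.3% and 20.9% of them from 1.18% and 1.74% of all UMIs. Neurons, with 42.3% and 43.9% of all UMIs, held 9.14% and 6.98%. Nuclei with markers of several lists held 14.4% and 12.8%, and those of no gate 19.5% and 13.9%.

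The whole-library ratio of Apoe joined a difference of levels within gates with a difference in the makeup of the nuclei. With the gate levels of the cKO-labelled library and the makeup of control, Apoe would stand at 330 CPM, 1.75 times the control level. With control levels and the makeup of the cKO-labelled library it would stand at 233 CPM, a ratio of 1.24. Without any nucleus of the astroglia and myeloid gates the ratio was 1.74 (1.65 to 1.85). The nuclei left included those of no gate, where the astroglia markers summed to 257 CPM in control and 351 CPM in the cKO-labelled library. Differences in makeup inside a gate or such a group count as levels in this arithmetic. For Abca1 the same arithmetic gave 1.17 for levels and 1.23 for makeup of an observed 1.43, with the larger factor for makeup.

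**Figure D3:**
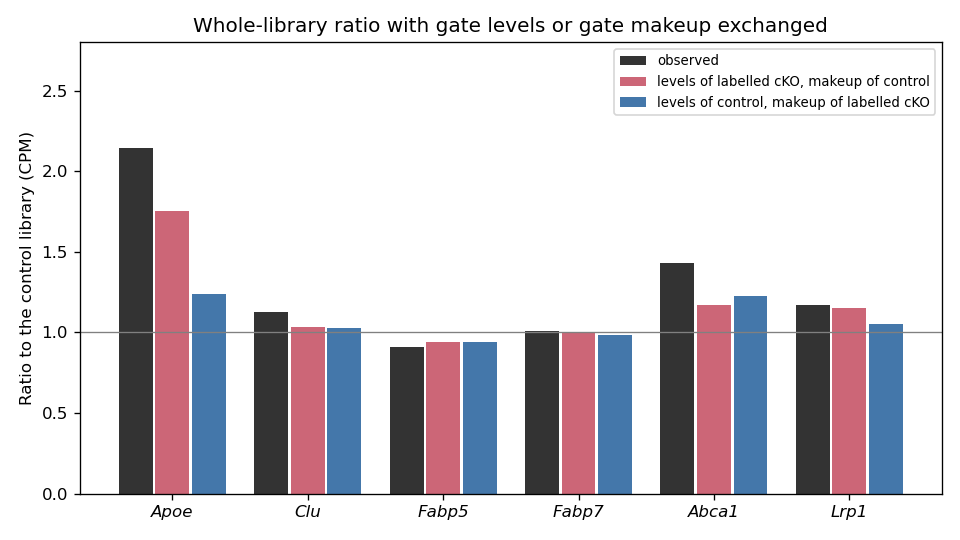
Ratio to the control library over the whole library (linear axis from 0) for the 6 genes, as observed and with either the gate levels or the gate makeup of the cKO-labelled library put in place of those of control. For Apoe the 3 bars stand at 2.15, 1.75 and 1.24, and for Abca1 at 1.43, 1.17 and 1.23.

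Clu, the other apolipoprotein (ENSMUSG00000022037, chromosome 14, 65968483 to 65981547, plus strand), was barely detected in nuclei at this age. There were 136 Clu UMIs in control, or 6.64 CPM (5.57 to 7.85), and 225 in the cKO-labelled library, or 7.46 CPM (6.52 to 8.50), a ratio of 1.12 (0.904 to 1.40). Astroglia held 10 and 35 of them, and the myeloid gate 1 and 0. The parenchymal side of astroglia stood highest, with 28.4 CPM on 6 UMIs in control and 42.7 CPM on 21 UMIs in the cKO-labelled library, and in the latter it exceeded the Bergmann side 7.97-fold (3.11 to 24.1). Astroglia in the cKO-labelled library exceeded neurons 3.15-fold (2.04 to 4.80), and in control the interval of that ratio, 0.890 to 3.99, included 1. The oligodendrocyte lineage, at 16.8 CPM on 5 UMIs and 17.1 CPM on 14, exceeded neurons 3.24-fold (1.004 to 8.14) in control and 3.29-fold (1.71 to 5.90) in the cKO-labelled library, and it could not be told from astroglia in either. A difference between libraries within astroglia was not detectable at this depth, with a ratio of 1.60 (0.774 to 3.62).

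Fabp7 (brain lipid binding protein) was highest in astroglia among the gates in the order and close to equal between libraries. Control astroglia had 627 Fabp7 UMIs, or 644 CPM (595 to 697), and those of the cKO-labelled library had 1511, or 709 CPM (673 to 745), which gives a ratio of 1.10 (1.00 to 1.21). Over the whole library the levels were 265 and 267 CPM, a ratio of 1.007 (0.973 to 1.04). Astroglia exceeded neurons 3.84-fold (3.49 to 4.22) in control and 4.08-fold (3.83 to 4.36) in the cKO-labelled library, a far smaller excess than that of Apoe. The oligodendrocyte lineage came next at 272 and 335 CPM, and its level could not be told from that of the myeloid gate, 228 and 293 CPM, within counting error.

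Fabp7 did not follow the subtypes of astroglia as Apoe did. The Bergmann side had 647 CPM in control and the parenchymal side 692 CPM, a ratio of 1.07 (0.877 to 1.30), and in the cKO-labelled library they had 682 and 756 CPM. Of astroglia, 89.4% and 86.9% had a Fabp7 UMI before thinning, and 40.4% and 45.6% after it. Among neurons 16.2% and 16.9% had one after thinning. Before thinning the median neuron also held Fabp7, at 138 and 146 CPM. The part of free RNA in these shares was not tested. The highest level of all was in nuclei under 1000 UMIs, 1643 CPM (1545 to 1747) in control and 1962 CPM (1827 to 2104) in the cKO-labelled library. Those nuclei held 19.0% of Fabp7 UMIs from 3.07% of all UMIs in control and 9.72% from 1.33% in the other library.

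Fabp5, the epidermal fatty acid binding protein (ENSMUSG00000027533, chromosome 3, 10012548 to 10016607, plus strand), showed little preference for glia. It stood at 112 CPM (91.9 to 135) in control astroglia and 113 CPM (99.2 to 128) in those of the cKO-labelled library, and at 82.9 and 82.4 CPM in neurons. The excess of astroglia over neurons was 1.35-fold (1.09 to 1.66) and 1.37-fold (1.19 to 1.58). No neighbours in the order of gates differed beyond counting error in either library. Fabp5 in nuclei under 1000 UMIs stood at 634 and 656 CPM, above every gate. Over the whole library Fabp5 was 0.908 times (0.859 to 0.960) the control level, and 0.991 times when nuclei under 1000 UMIs were left out. With those left out and each other nucleus thinned to 1000 UMIs it was 0.903 times. The part of the shallow nuclei in that difference was not tested. A processed copy of Fabp5 elsewhere in the genome may take or give reads, so its counts are uncertain.

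**Figure D4:**
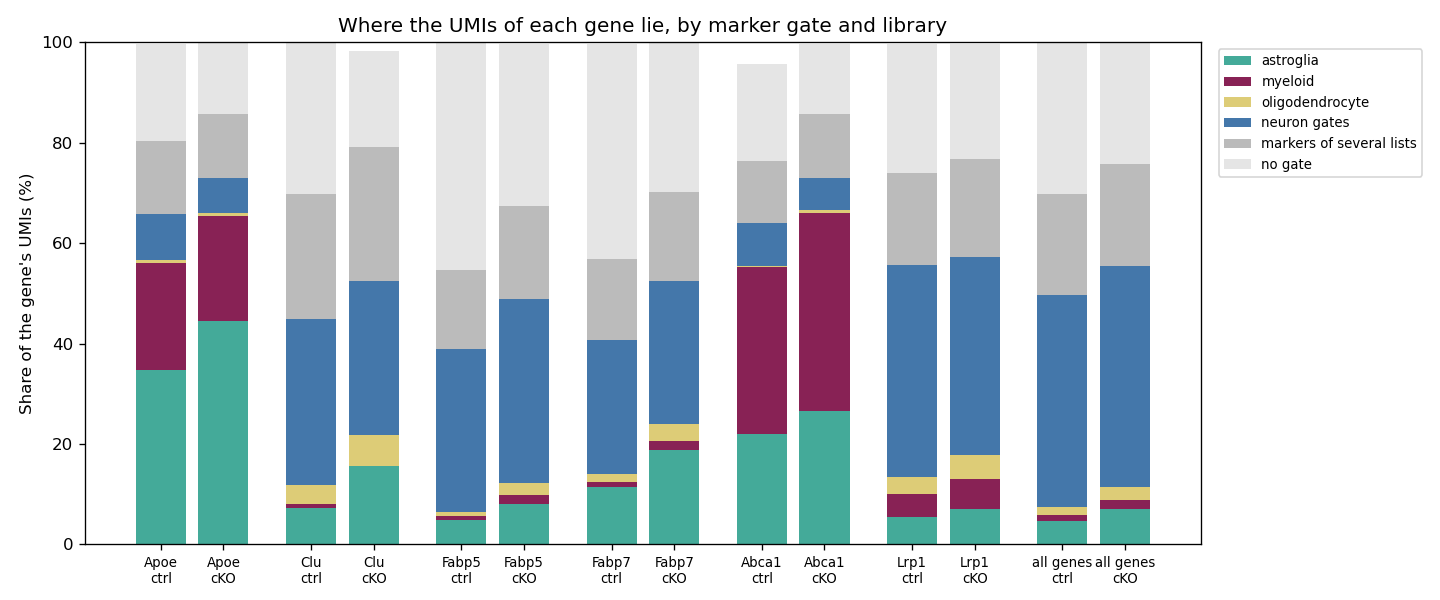
Share of each gene's UMIs (percent, bars stacked from 0 to 100) found in astroglia, myeloid, oligodendrocyte lineage and neuron gates, in nuclei with markers of several lists and in those of no gate, for control (ctrl) and the cKO-labelled library, beside the share of all UMIs. Endothelial, fibroblast and mural nuclei are not drawn. Astroglia held 34.8% and 44.4% of Apoe UMIs but 4.90% and 8.10% of Fabp5 UMIs.

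Abca1, the exporter that lipidates Apoe, was highest in myeloid nuclei and next in astroglia among the gates in the order. Control had 276 Abca1 UMIs in myeloid nuclei, or 1145 CPM (1014 to 1289), and 184 in astroglia, or 189 CPM (163 to 218), a ratio of 6.06 (5.01 to 7.34). In the cKO-labelled library myeloid nuclei had 692, or 1317 CPM (1221 to 1419), and astroglia 465, or 218 CPM (199 to 239), a ratio of 6.04 (5.36 to 6.81). Neurons were at 8.30 and 8.60 CPM, so astroglia exceeded them 22.8-fold (17.3 to 30.3) and 25.4-fold (20.6 to 31.4). In 64 and 209 oligodendrocyte lineage nuclei there were 2 and 11 UMIs. After thinning, 63.9% and 66.1% of myeloid nuclei and 14.1% and 17.6% of astroglia held an Abca1 UMI, against 0.911% and 0.915% of neurons.

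Between libraries Abca1 was 1.43-fold (1.32 to 1.56) higher over the whole library. Within gates the ratios were smaller and their intervals included 1, at 1.15 (0.971 to 1.38) in astroglia and 1.15 (0.999 to 1.33) in the myeloid gate. Nuclei with markers of several lists had a ratio of 1.46 (1.15 to 1.86) and those of no gate 1.28 (1.05 to 1.58). Subsets of the gates went in different directions. Abca1 was higher in microglia-leaning nuclei of the cKO-labelled library, 1482 against 991 CPM (ratio 1.496, 1.25 to 1.80), and lower in macrophage-leaning nuclei, 1202 against 1748 CPM (ratio 0.688, 0.540 to 0.881). It was higher on the Bergmann side of astroglia, 171 against 120 CPM (ratio 1.43, 1.08 to 1.91), and not distinguishable on the parenchymal side, 337 against 360 CPM (ratio 0.936, 0.710 to 1.25). As with Apoe, the parenchymal side was above the Bergmann side, 3.00-fold (2.14 to 4.23) in control and 1.97-fold (1.59 to 2.44) in the cKO-labelled library.

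Lrp1, the receptor (ENSMUSG00000040249, chromosome 10, 127538161 to 127621148, minus strand), was present in every gate described here. An antisense gene, Gm16217, overlaps it and is counted separately. Lrp1 was highest in the myeloid gate, at 353 CPM (282 to 436) in control and 371 CPM (321 to 427) in the cKO-labelled library, followed by the oligodendrocyte lineage at 212 CPM (163 to 271) and 192 CPM (163 to 225). Astroglia had 108 and 107 CPM and neurons 92.1 and 96.7 CPM, a ratio of 1.17 (0.946 to 1.44) and 1.10 (0.952 to 1.27), so no astroglial excess was detectable. The ratio between libraries was 1.17 (1.11 to 1.24) over the whole library, and in astroglia, oligodendrocyte lineage, myeloid and neuron gates it lay between 0.907 and 1.05 with every interval including 1. Nuclei with markers of several lists and those of no gate had ratios of 1.26 (1.11 to 1.44) and 1.28 (1.14 to 1.44).

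**Figure D5:**
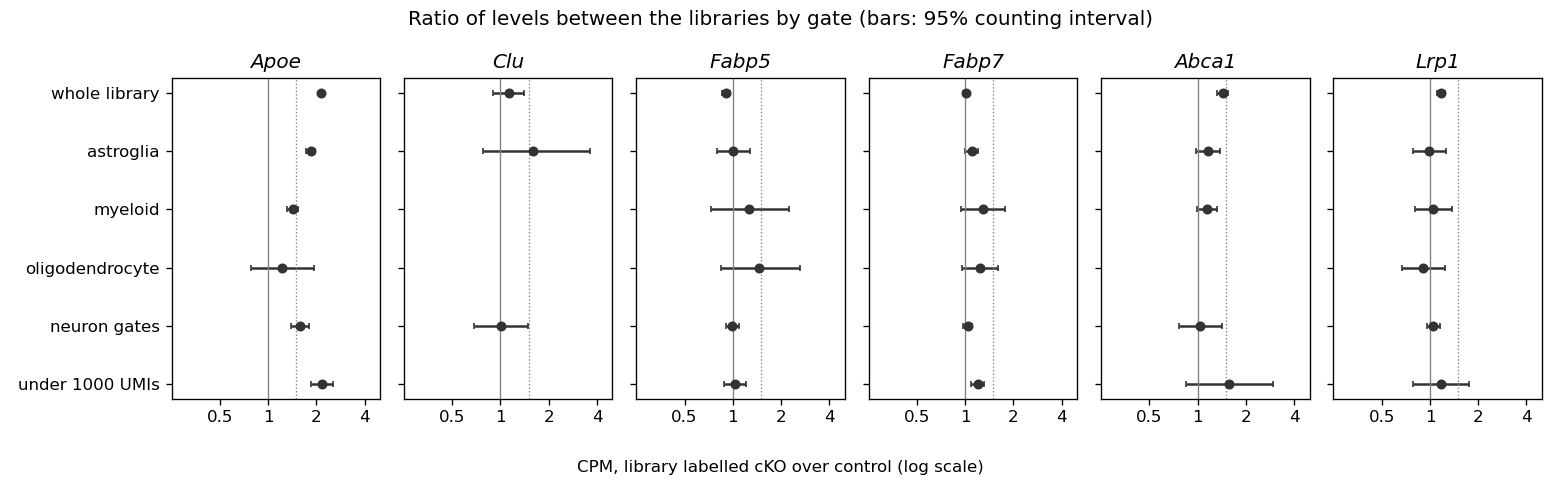
Ratio of CPM, cKO-labelled library over control (log axis), for the 6 genes over the whole library, in marker gates and in nuclei under 1000 UMIs, as points with exact 95% counting intervals. The solid line marks equal levels and the dotted line a fold of 1.5, and points with fewer than 20 UMIs over both libraries are left out. The Apoe interval lies above 1 in each population but the oligodendrocyte lineage, where it runs from 0.782 to 1.94.

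Over 12 points, 6 gates in each of the 2 libraries, the levels of Apoe and Abca1 ran most closely together among the members, with r = 0.972 of log2(CPM + 1). Apoe and Fabp7 gave r = 0.686, and Clu gave values between -0.301 and 0.382 with the other 5. These points share libraries, depth and free RNA, so r is a description. Of 15538 other genes, the most like Apoe in this measure were Psap, Ptpra and Adam17 (r = 0.982, 0.978 and 0.975), of which Psap encodes a lysosomal lipid-handling protein precursor. Phgdh, Vim and Bmpr1a were the most like Fabp7 (r = 0.985, 0.973 and 0.971), with Phgdh an enzyme of serine synthesis and Vim the intermediate filament vimentin. The most like Abca1 were Gm20528, Ttc14 and Nfkb1, and the most like Lrp1 were Hltf, Abhd12 and Vmp1 (r between 0.967 and 0.994). For Fabp5 they were Gm16133, Col4a4 and Zdhhc1 (r between 0.898 and 0.8995), and for Clu Pnn, Cacng4 and Rdh11 (r between 0.920 and 0.948).

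Other genes of lipid transport and use differed little as a group. Of a list of 55 such genes, 51 had at least 50 UMIs over the whole library, of which 3 were higher by a fold of 1.5 and 1 was lower, with a median log2 ratio of 0.04 against -0.02 for all genes. The higher ones were the scavenger receptor Cd36, from 1.07 to 3.15 CPM (ratio 2.93, 1.83 to 4.90), the retinoid X receptor Rxrg, from 10.1 to 17.0 CPM (1.68, 1.43 to 1.99), and the fatty acid sensor Ppara, from 2.93 to 4.64 CPM (1.59, 1.16 to 2.18). Within astroglia Rxrg stood at 114 and 145 CPM, a ratio of 1.275 (1.02 to 1.60), below the fold. The part of the gate makeup in these whole-library ratios was not tested. Lipoprotein lipase, Lpl, was the lower one, from 6.73 to 4.41 CPM (0.655, 0.512 to 0.837). Against backgrounds of 5.26% and 5.81%, 3 and 1 of 51 genes are near what all genes gave.

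In astroglia 37 of the 55 genes had enough UMIs, and 3 were higher and 0 lower, beside 6% and 4.59% of all genes in the gate, so the count is near the background. All 3 belonged to the list of fatty acid carriers and use, 7 of whose 9 genes were tested, with a median log2 ratio of 0.52 against 0.01 for all genes in the gate. They were Fabp3, another fatty acid binding protein, at 10.3 and 19.7 CPM (ratio 1.92, 0.947 to 4.29), Acsl6, an acyl-CoA synthetase, at 27.7 and 42.7 CPM (1.54, 0.992 to 2.46), and Ppara at 27.7 and 43.2 CPM (1.56, 1.00 to 2.49). Counting error alone reached down to about equal levels for each of them. The lists of lipoprotein receptors, of lipid exporters and of cholesterol synthesis had median log2 ratios of -0.01, 0.14 and 0.09 in astroglia. No gene of these lists passed a fold of 1.5 in either direction, but only 9, 3 and 10 of their genes were tested. Apoe was chosen with its ratio in view, so these counts are not set against it.

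In the other gates, genes were named after their values had been seen. In myeloid nuclei 14 list genes were tested and 2 were higher, beside 9.81% of all genes in the gate, Cd36 at 20.8 and 135 CPM (ratio 6.51, 2.66 to 20.7) and the lysosomal lipase Lipa at 41.5 and 85.6 CPM (2.06, 1.03 to 4.59). In neurons Pparg, a fatty acid sensor, was higher, at 6.92 and 11.4 CPM (1.65, 1.21 to 2.26), and Lpl was lower, at 3.23 and 1.66 CPM (0.514, 0.280 to 0.932). The cholesterol synthesis list in neurons had a median log2 ratio of -0.38 over 11 genes, against -0.02 for all genes, with no gene past the fold. The neuron gates differed in makeup. Granule lineage nuclei held 3969709 of 8675971 neuronal UMIs in control and 3527345 of 13254134 in the cKO-labelled library. The part of this makeup in the neuronal ratios was not tested.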

How the data were processed

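Per the file headers and the methods of the study, the authors sequenced 10x Genomics 3′ v3.1 single-nucleus libraries and used Cell Ranger 7.0.1 on mm10 for alignment and counting, and the deposited values are raw UMI counts per gene and nucleus, without normalisation. Whether intronic reads were counted is not given in the sources used here. The correction for free RNA that the study applied (SoupX) needs droplets not used here, so counts are uncorrected.

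Nuclei with over 25% mitochondrial UMIs were removed (1 in control, 5 in the cKO-labelled library), and Scrublet in scanpy 1.11.5 removed the top 0.8% per 1000 barcodes as doublets (189 of 4857 and 386 of 6946). UMIs were summed per gate and divided by the gate's total (CPM). With 1 library per group no test was run. Intervals are exact 95% intervals, Poisson for levels, Clopper-Pearson for shares and conditional binomial for ratios. Only those for ratios were run on simulated counts. These were Poisson totals per library, so the simulation could not show the effect of UMIs clumped in few nuclei. For shares, nuclei were thinned at random to 1000 UMIs and shallower ones left out. Subsets of a gate were set by which of 2 lists of 5 markers had more members detected. Gene positions are from GENCODE M21 and promoters from RefSeq, both on GRCm38, and UMIs of different genes were set against each other only as proportions within the same nuclei. Members, marker lists and the lipid list were chosen with earlier results of these data known.

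The lipid list was described by counts, naming its genes past a fold of 1.5 with at least 50 UMIs over both libraries in the whole library or astroglia, and for each member the 3 genes with the highest Pearson r over gates with at least 30 nuclei, among genes with at least 100 UMIs and with members and gate markers left out. Some results are not reported here. The alternatives covered filters, depth, scaling, gate rules and fold. Computations used Python 3.11.15, numpy 2.4.6, scipy 1.17.1 and pandas 2.3.3.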

Additional observations from a re-analysis of the deposited data

Results flagged for a closer look

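Abca1 differed between the libraries in opposite directions in 2 subsets of cells, beyond counting error in each. In macrophage-leaning nuclei of the myeloid gate the ratio of the cKO-labelled library to control was 0.688 (0.540 to 0.881), on 99 UMIs in 19 control nuclei and 221 UMIs in 56 nuclei. In Bergmann-leaning nuclei of the astroglia gate it was 1.43 (1.08 to 1.91), on 68 UMIs in 120 nuclei and 192 UMIs in 282 nuclei. The difference between these ratios was not tested, since each group is 1 library.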

How the results depend on the processing

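Of 264 values under alternatives, 203 ratios stayed inside the counting interval of the main value and 29 left it. The 24 ratios at fixed makeup moved by less than the counting error of the whole-library ratio, and of 8 gene counts 4 moved by over 1.5 times or to or from 0. As to sign, 0 values turned the direction of a ratio whose interval excluded 1. No paired analysis was possible because each group is 1 library. Apoe stayed above 1 throughout, between 1.74 and 2.46 over the whole library, 1.64 and 1.94 in astroglia, 1.16 and 1.48 in the myeloid gate and 1.54 and 2.48 in neurons, and the cause of the shifts was not tested.

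With each nucleus thinned to 1000 UMIs, the ratios over the whole library were 2.46 for Apoe, 1.08 for Fabp7, 1.58 for Abca1 and 1.27 for Lrp1. In astroglia they were then 0.795 for Fabp5, 1.26 for Fabp7, 1.49 for Abca1 and 1.26 for Lrp1, in the myeloid gate 0.995 for Abca1, and in neurons 2.48 for Apoe and 1.25 for Lrp1. With gates set on thinned nuclei, where the marker minimum was also lowered from 3 to 2, the neuronal ratios were 2.16 for Apoe and 2.17 for Abca1. Without a filter on barcodes the neuronal Apoe ratio was 1.83. In nuclei with at least 1000 UMIs the whole-library ratio was 0.991 for Fabp5 and 1.10 for Fabp7.

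With a lead of 3 markers Apoe stood at 1.16 in the myeloid gate and at 1.64 in astroglia, and Abca1 at 0.951 in myeloid nuclei. With a lead of 1 marker the myeloid ratios were 1.21 for Apoe, 0.922 for Fabp7 and 0.971 for Abca1, and with at least 4 markers 1.30 for Apoe. The myeloid ratios of Fabp7 and Abca1 thus had no settled direction.

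The following were added after the data were seen. Without the astroglia and myeloid gates the whole-library ratio was 1.74 for Apoe, 0.942 for Fabp7 and 1.12 for Abca1, and without the myeloid gate alone it was 1.30 for Abca1. With the neuronal level subtracted, Fabp7 stood at 1.97 in the myeloid gate and Lrp1 at 0.618 in astroglia.

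For the lipid list, a fold of 2 left 1 gene higher and 0 lower in the whole library and 0 higher in astroglia. A minimum of 20 UMIs gave 4 higher and 1 lower in astroglia. The lower one was the lipoprotein gene Apod, at 23.6 and 9.38 CPM on 23 and 20 UMIs (ratio 0.397, 0.207 to 0.756). The ratios of Clu between libraries within gates rest on few UMIs, and those in astroglia ran from 1.04 to 3.12.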
